A study of Mus musculus with 11 samples.

Results

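The 10 genes described here are Dusp1, Dusp6, Ier2, Ier3, Btg2, Zfp36, Ppp1r15a, Gadd45b, Gadd45g and Arc, a group of immediate early feedback and stress genes. They were taken by name from the 25311 genes of a single-cell count table of the mouse retina, and all 10 were found there. The names were listed after earlier results of the same cells were known, above all the difference between Phase I ROP and control retinas. Values of the 10 genes from that contrast are therefore a description, with no p-value printed, and where counts of called genes are given for it they stand beside the share of all genes called. Tests of single members are kept for comparisons among the mice that all received streptozotocin (STZ).

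The study examined how hyperglycemia in the first days of life, and dietary LCPUFA (long-chain fatty acids with several double bonds) of the ω-3 or ω-6 family, affect the developing retina. Retinas of 11 C57BL/6J mice were dissociated with papain at P10 and run through inDrop, a droplet method in which each RNA molecule carries a unique molecular identifier (UMI). The control group was 3 mice given PBS. Phase I ROP is a model of hyperglycemia-associated retinopathy made by daily intraperitoneal STZ, a toxin to the insulin-producing cells of the pancreas, from P1 to P9, and 3 Phase I ROP mice had no diet named in the labels. Another 2 Phase I ROP mice were nursed by dams on the ω-3 LCPUFA diet and 3 by dams on the ω-6 LCPUFA diet, so that 8 mice in all received STZ. Control and Phase I ROP mice were littermates, as were the mice of both diets, which were split into 2 cages and carry the mark JAX in the labels. Litter, source of the mice and diet therefore cannot be told apart when diet-fed mice are set beside the Phase I ROP mice without a named diet. Each library was 1 mouse.

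Immediate early genes are transcribed within minutes of a stimulus, without the need for new protein, and their products then shape or end the response. Many of them act as brakes. Some remove the phosphates that activate MAP kinases, some shorten the life of other mRNAs, and some restart translation or hold the cell cycle after stress. In the retina such genes are known from light, injury and synaptic activity, and in any tissue they can also be switched on while cells are being separated.

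The genes are spread over 7 chromosomes (GRCm38 coordinates, GENCODE annotation). Dusp1 is at chr17:26505590-26562128 on the minus strand, Dusp6 at chr10:99263231-99267489 on the plus strand, Ier2 at chr8:84661331-84662852 on the minus strand as a gene of 1 exon, and Ier3 at chr17:35821684-35822923 on the plus strand. Btg2 lies at chr1:134075170-134079120 on the minus strand, Zfp36 at chr7:28376784-28380253 and Ppp1r15a at chr7:45522916-45526268, both on the minus strand. Gadd45b lies at chr10:80930073-80932204 and Gadd45g at chr13:51846678-51848468, both on the plus strand, and Arc at chr15:74669083-74672570 on the minus strand. All 10 are protein-coding.

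Promoter sequence from RefSeq (GRCm38.p6) was matched for 8 of the 10 genes by symbol, all but Ier2 and Arc, and the 250 bases before each start were searched on both strands. The cAMP response element TGACGTCA was found in 3 of the 8, against 1.55% of all 32851 windows of that length. The EGR motif GCGNGGGCG was in 3 of the 8 (Btg2, Zfp36 and Gadd45b) against 4.70%, TATAAA in 2 of the 8 (Gadd45b and Gadd45g) against 12.4%, and the CArG box in 1 of the 8 (Zfp36) against 1.47%. The AP-1 motif TGANTCA was in none of these windows, and in 6.75% of all windows. The stretches around the 3 cAMP response elements are shown as an element shared by genes of different roles here. The EGR motif was shared by genes of different roles as well, and its stretches in Zfp36 and Gadd45b are not shown. The stretch of Gadd45g is shown because over all cells its level differed least between Phase I ROP and control. Capitals mark the motif matches (TGACGTCA, GCGCGGGCG for EGR in Btg2, TATAAA in Gadd45g), and each is printed 5′ to 3′ on the strand of the gene. The cAMP response element began 143 bases before the start of Dusp1, 166 before that of Btg2 and 12 before that of Ppp1r15a. These are RefSeq starts, which can differ from the ends of the GENCODE intervals above, and that of Dusp1 lies inside its interval. A match is only a description of the letters.
Dusp1, chr17:26508588-26508635, minus strand: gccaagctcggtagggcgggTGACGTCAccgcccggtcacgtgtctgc
Btg2, chr1:134079258-134079341, minus strand: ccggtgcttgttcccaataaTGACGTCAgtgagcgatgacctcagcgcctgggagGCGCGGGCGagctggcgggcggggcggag
Ppp1r15a, chr7:45526269-45526300, minus strand: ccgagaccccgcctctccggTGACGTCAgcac
Gadd45g, chr13:51846628-51846673, plus strand: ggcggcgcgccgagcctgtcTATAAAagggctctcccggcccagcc

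The table held 20067 cells, of which 20033 had more than 300 genes and entered 25 clusters. Classes were named from marker genes as 10178 rods, 3596 bipolar cells, 3287 amacrine cells, 1425 Müller glia and 1126 cones, with 31 to 113 cells in each of the small classes. The median over mice of the summed class markers was highest in the class they name, but no rod marker was among the 10 leading genes of 7 of the 10 rod clusters (2686 cells). The control mice held only 14, 13 and 46 cones. The total was 2563064 to 6516478 UMIs per mouse, and the median cell had 1550 to 2341 UMIs in the control mice, 1003.5 to 1190 in the Phase I ROP mice and 1386.5 to 2215 in the diet-fed mice. Of 18872 distinct barcodes, 1157 occurred in more than 1 library. The control libraries stood apart from all 8 others in features beyond these genes. Rn7sk was at 193 to 290 counts per 1000000 UMIs (CPM) in control and 1.15 to 16.2 in the STZ-treated mice, mt-Rnr2 at 28200 to 41200 and 3060 to 8230 CPM, and a list of 24 genes known to respond to tissue dissociation summed to 2760 to 3290 and 4890 to 6430 CPM. In the rods the rod markers summed to 11100 to 20100 CPM in control and 31600 to 44800 CPM in the Phase I ROP mice. The labels name no preparation batch, and differences between libraries cannot be told apart from STZ treatment in any Phase I ROP vs. control value below.

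Levels are given as CPM, the UMIs of a gene per 1000000 UMIs of 1 mouse's cells of a class, in the order of replicates 1, 2 and 3. Over all cells, 9 of the 10 genes stood higher in each Phase I ROP mouse than in each control mouse, and Gadd45g did not. The same was true of 28.8% of all genes with a UMI in these 6 mice and of 45.3% of those at a mean of 10 CPM or more, so such a separation was common among all genes in these libraries. That share was not counted within single classes, so a lack of overlap in a class below is a description only. The pooled Phase I ROP to control ratio ran from 2.84 (95% interval 2.28 to 3.56) for Dusp6 to 11.6 (7.81 to 17.8) for Ppp1r15a, with Arc at 34.2 (9.14 to 288) on only 2 control UMIs and Gadd45g at 0.987 (0.818 to 1.19). These exact intervals cover counting error only. Pooled ratios here and below are of unscaled CPM, whereas the fitted changes use a scaling between libraries, so they can differ in size. In bulk sums over all cells, fewer cells of a type and less RNA per cell cannot be told apart.

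**Figure D1:**
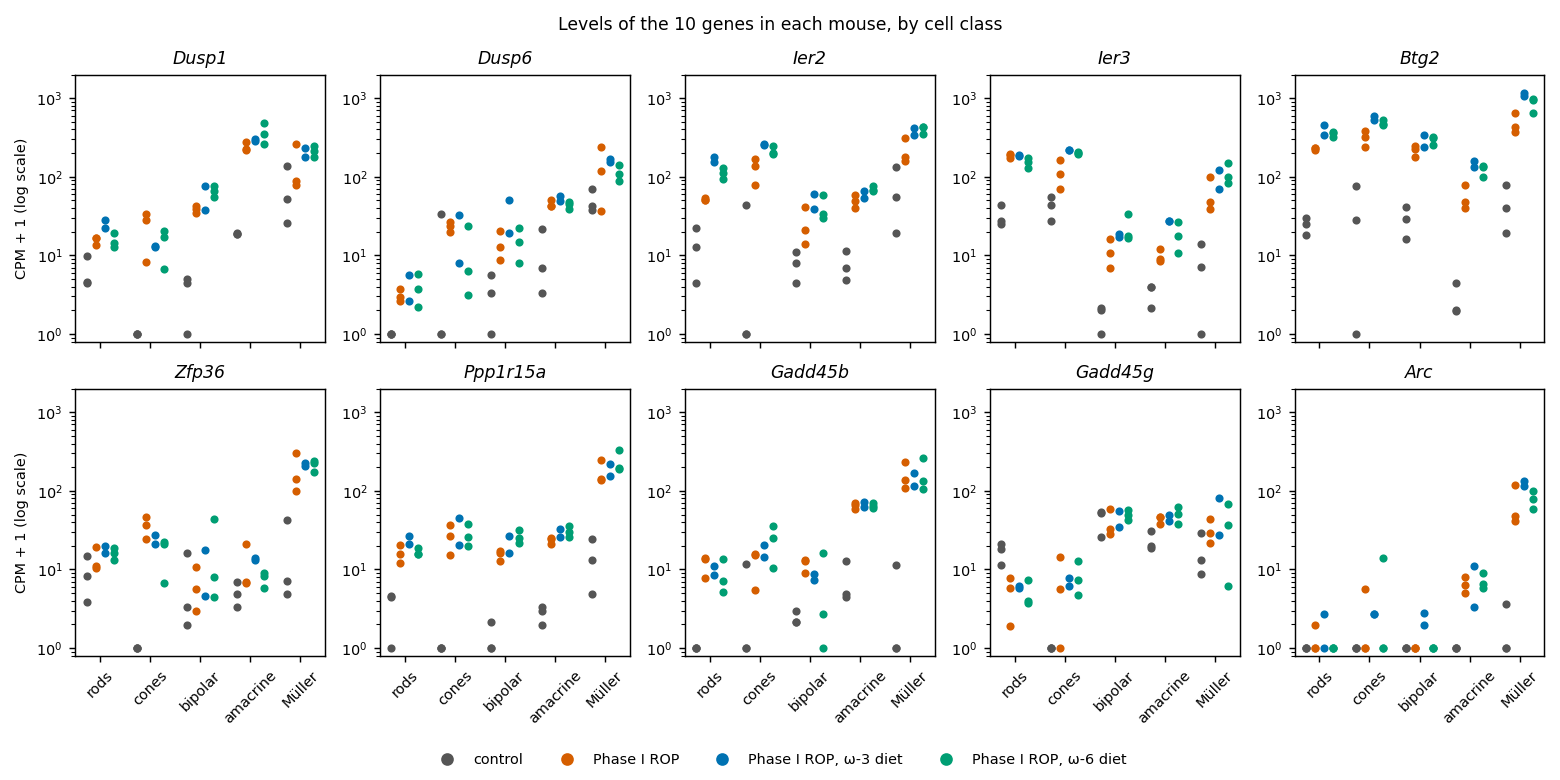
Levels of the 10 genes in each of the 11 mice for rods, cones, bipolar cells, amacrine cells and Müller glia, as CPM + 1 on a log axis, with 1 point per mouse coloured by group. Control points lie lowest in most panels, Arc is near the bottom outside Müller glia, and the Gadd45g points of the control mice lie among those of the others in bipolar cells and Müller glia, above the Phase I ROP points in rods, below them in amacrine cells, and at 0 in cones.

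Dusp1 and Dusp6 encode phosphatases that inactivate MAP kinases. DUSP1 is nuclear and acts mainly on p38 and JNK, while DUSP6 is cytoplasmic and acts on ERK. Amacrine cells held 17.8, 17.5 and 18.2 CPM of Dusp1 in the control mice and 224, 215 and 275 CPM in the Phase I ROP mice, a fitted log2 fold change of 3.38 ± 0.20 (SE, n = 3 and 3). The groups were far apart and the control mice almost equal. Bipolar cells held 3.47, 0 and 3.96 CPM of Dusp1 in control and 41.7, 33.7 and 38.2 CPM in Phase I ROP (log2 fold change 3.41 ± 0.54). In Müller glia the groups overlapped, with 50.4, 24.5 and 137 CPM in control and 78.5, 87.6 and 263 CPM in Phase I ROP. The fitted change there was 0.75 ± 0.52 and fell to -0.02 without Phase I ROP replicate 3, the highest of the 3 mice. Müller glia of the control mice thus already carried Dusp1 at levels above those of the other 4 classes.

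Dusp6 in amacrine cells was 5.94, 20.4 and 2.28 CPM in control and 49.8, 41.5 and 41.7 CPM in Phase I ROP, without overlap (log2 fold change 1.82 ± 0.46). In Müller glia it was 69.8, 36.8 and 41.4 CPM in control and 116, 36.1 and 239 CPM in Phase I ROP, so 1 Phase I ROP mouse lay below all 3 control mice. Rods held almost none, with 0 UMIs in the control mice and 6 UMIs in all 3 Phase I ROP mice.

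Ier2 encodes a small nuclear protein of the immediate early response, and Ier3 a regulator of cell survival under stress. In rods Ier2 was 11.6, 3.49 and 21.6 CPM in control and 50.2, 52.4 and 49.9 CPM in Phase I ROP (log2 fold change 1.57 ± 0.45), and the Phase I ROP mice were close to one another. In amacrine cells it was 5.94, 3.88 and 10.3 CPM against 47.7, 39.2 and 57.6 CPM (2.52 ± 0.37), and in Müller glia 54.3, 18.4 and 134 CPM against 176, 160 and 306 CPM (1.35 ± 0.44). No class overlapped for Ier2.

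Ier3 differed from the other genes in where it was high. Rods held 26.1, 24.4 and 43.2 CPM of Ier3 in control and 186, 172 and 193 CPM in Phase I ROP (log2 fold change 2.18 ± 0.28). Cones held 54, 26 and 43.1 CPM in control and 67.9, 108 and 163 CPM in Phase I ROP (1.26 ± 0.61), also without overlap. Müller glia held 0, 6.13 and 12.9 CPM against 37.7, 46.4 and 98.1 CPM.

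Btg2 and Zfp36 encode proteins that speed the loss of mRNA. BTG2 binds the CCR4-NOT deadenylase and restrains proliferation, and ZFP36 (tristetraprolin) brings that complex to mRNAs with AU-rich elements. Btg2 was higher in every class, and in every Phase I ROP mouse than in every control mouse. Amacrine cells showed 0.99, 0.97 and 3.42 CPM in control and 46.7, 39.2 and 78.5 CPM in Phase I ROP, the largest fitted Btg2 change among the 5 classes (4.56 ± 0.51). Müller glia showed 38.8, 18.4 and 77.6 CPM against 427, 371 and 640 CPM (3.12 ± 0.35). In rods the values were 17.4, 24.4 and 28.8 CPM against 234, 219 and 231 CPM (2.93 ± 0.29), and bipolar cells were close to that at 15, 39.8 and 27.7 CPM against 177, 226 and 246 CPM (2.55 ± 0.27).

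Zfp36 showed the difference in Müller glia, with 3.88, 6.13 and 41.4 CPM in control and 100, 139 and 302 CPM in Phase I ROP (log2 fold change 2.95 ± 0.59). In rods, bipolar cells and amacrine cells its groups overlapped. Bipolar cells, for example, held 2.31, 15.2 and 0.99 CPM in control and 9.63, 1.98 and 4.58 CPM in Phase I ROP, a pooled ratio of 0.957 (0.388 to 2.24). Cones of the control mice had no Zfp36 UMI, and against a floor of 3 UMIs over the group the Phase I ROP cones were at least 1.97-fold higher.

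Ppp1r15a encodes GADD34, the stress-induced subunit that directs protein phosphatase 1 to eIF2α and so restarts translation. In Müller glia it was 3.88, 12.3 and 23.3 CPM in control and 138, 139 and 243 CPM in Phase I ROP (log2 fold change 3.42 ± 0.47). In amacrine cells it was 0.99, 1.94 and 2.28 CPM against 24.4, 23.1 and 19.9 CPM (3.28 ± 0.50). In rods the 3 control mice together had 3 UMIs, a pooled ratio of 6.20 (1.98 to 31.2). The groups did not overlap in any of the 5 classes.

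The GADD45 proteins act in growth arrest and DNA repair and bind a kinase upstream of p38 and JNK. The pair measured here behaved differently. Gadd45b in Müller glia was 0, 0 and 10.3 CPM in control and 138, 108 and 235 CPM in Phase I ROP (log2 fold change 4.82 ± 0.63), and in amacrine cells 11.9, 3.88 and 3.42 CPM against 57.3, 69.2 and 64.6 CPM (2.92 ± 0.37). Rods of the control mice had no Gadd45b UMI, and the Phase I ROP rods, at 6.76, 12.7 and 12.9 CPM, were at least 4.18-fold above the floor. Gadd45g over all cells was 26.2, 18.7 and 30.9 CPM in control and 25.7, 28.1 and 23.2 CPM in Phase I ROP. In rods it was lower in Phase I ROP, at 17.4, 10.5 and 19.8 CPM against 6.76, 4.77 and 0.924 CPM, a pooled ratio of 0.238 (0.103 to 0.52) on 11 and 20 UMIs. In amacrine cells it was higher, at 18.8, 17.5 and 29.6 CPM against 45.6, 36.9 and 45.7 CPM, a pooled ratio of 1.99 (1.46 to 2.74). The fitted log2 fold change there, 0.63 ± 0.29, was smaller than that ratio, and Gadd45g was not called. In bipolar cells the groups overlapped, with a fitted change of -0.58 ± 0.35. The difference between rods and amacrine cells was not tested.

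Arc encodes a postsynaptic protein that controls AMPA receptor turnover and is a standard mark of neuronal activity. Its UMIs were found mainly in Müller glia, with 0, 0 and 2.59 CPM in control and 40.8, 46.4 and 118 CPM in Phase I ROP (log2 fold change 5.23 ± 0.86, resting on 1 control UMI). Amacrine cells had no Arc UMI in control and 5.3, 6.92 and 3.97 CPM in Phase I ROP, at least 5.18-fold above the floor. Over the 3 Phase I ROP mice, rods had 1 UMI, cones had 1 UMI and bipolar cells had none. Müller glia also held more of the dissociation list, 9550 to 12100 CPM over the 8 STZ-treated mice and 2480 to 4010 CPM in control, and the part of dissociation in the levels of these genes was not tested. In bipolar cells that list summed to about the same in both, 2590 to 3130 CPM over the STZ-treated mice and 2580 to 3210 CPM in control, while the 10 genes together summed to 321 to 642 CPM and 83.3 to 98 CPM. A flat sum can hide changes of single genes. In Phase I ROP vs. control, 8 of the list's 12 genes tested in bipolar cells were called higher and 2 lower. Of all genes tested there, 21.3% were called higher and 23.9% lower. The median log2 fold change of the list was 1.51.

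At an adjusted p under 0.05 in edgeR's quasi-likelihood test, over all genes tested in a class, the members called higher in Phase I ROP were 5 of 8 tested in Müller glia (5.81% of all genes tested were called higher), 6 of 7 in amacrine cells (18.3%), 2 of 3 in bipolar cells (21.3%), 2 of 3 in cones (10.9%) and 3 of 3 in rods (20.4%). None was called lower (of all genes tested, 5.03%, 20.5%, 23.9%, 7.9% and 20.7% were, in the same order). The rest were too low for the filter, and the genes were chosen on this contrast, so nothing is read from these counts. The median fitted change of the members tested was 3.04 in Müller glia, 2.92 in amacrine cells, 2.55 in bipolar cells, 2.22 in cones and 2.18 in rods on the log2 scale, beside medians over all genes tested of 0.00, 0.02, 0.02, 0.10 and 0.03. These medians rest on the same chosen genes. A member could also pass the count filter through the Phase I ROP mice alone, so nothing is read from them either. The cone count rests on few control cells and was 1 without Phase I ROP replicate 2, without Phase I ROP replicate 3, without control replicate 1 or without control replicate 2. The bipolar count was 5 without Phase I ROP replicate 1 and 4 without Phase I ROP replicate 3.

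The diet-fed mice were used to ask whether the same genes differ among mice that all received STZ. Btg2 and Ier2 were called higher in the 5 diet-fed mice than in the 3 Phase I ROP mice without a named diet in photoreceptors, and Btg2 also in amacrine cells and Müller glia. This contrast shares the 3 Phase I ROP mice with that against control, and shares the 5 diet-fed mice with the contrast of ω-6 and ω-3. In rods Ier2 was 50.2, 52.4 and 49.9 CPM without a named diet, 175 and 152 CPM on the ω-3 diet and 130, 110 and 93.5 CPM on the ω-6 diet. All 5 diet-fed mice lay above all 3 others, and the log2 fold change was 1.46 ± 0.16 (adjusted p = 0.00024, edgeR). This call held under every alternative tried, each mouse left out included. Btg2 in rods was 234, 219 and 231 CPM without a named diet, 457 and 339 CPM on ω-3 and 362, 320 and 369 CPM on ω-6, again without overlap (0.76 ± 0.13, adjusted p = 0.020 in edgeR). Its call in rods was lost without Phase I ROP replicate 2 (adjusted p = 0.116), without replicate 3 (0.0904) and without ω-3 replicate 1 (0.066), and also in a fit of all 4 groups (0.109). These were the 2 members called of 7 tested in rods, where 0.125% of all genes tested were called higher.

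In cones 3 of 8 members tested rose, where 1.44% of all genes tested were called higher. Ier3 went from 67.9, 108 and 163 CPM without a named diet to 221 and 218 CPM on ω-3 and 195, 200 and 206 CPM on ω-6 (log2 fold change 0.89 ± 0.22, adjusted p = 0.022, edgeR). Btg2 went from 235, 324 and 380 CPM to 588 and 520 CPM on ω-3 and 523, 463 and 459 CPM on ω-6 (0.74 ± 0.16, adjusted p = 0.0105). Ier2 went from 76.9, 136 and 167 CPM to 258 and 251 CPM on ω-3 and 246, 202 and 195 CPM on ω-6 (0.89 ± 0.21, adjusted p = 0.0187). None of the 3 genes overlapped between diet-fed and other mice, and Phase I ROP replicate 1 was the lowest each time. The share of all genes so separated in cones was not counted. All 3 calls were lost without Phase I ROP replicate 1 (adjusted p of 0.141, 0.0704 and 0.117) and without replicate 2 (0.108, 0.057 and 0.0687). In rods, by contrast, Ier3 did not pass the test (-0.08 ± 0.13), with 186, 172 and 193 CPM without a named diet and 129 to 190 CPM in the diet-fed mice. The rod markers in the cones also summed higher in the diet-fed mice, 25100 to 30700 CPM against 13900 to 19600 CPM, and their part in the cone values was not tested.

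**Figure D2:**
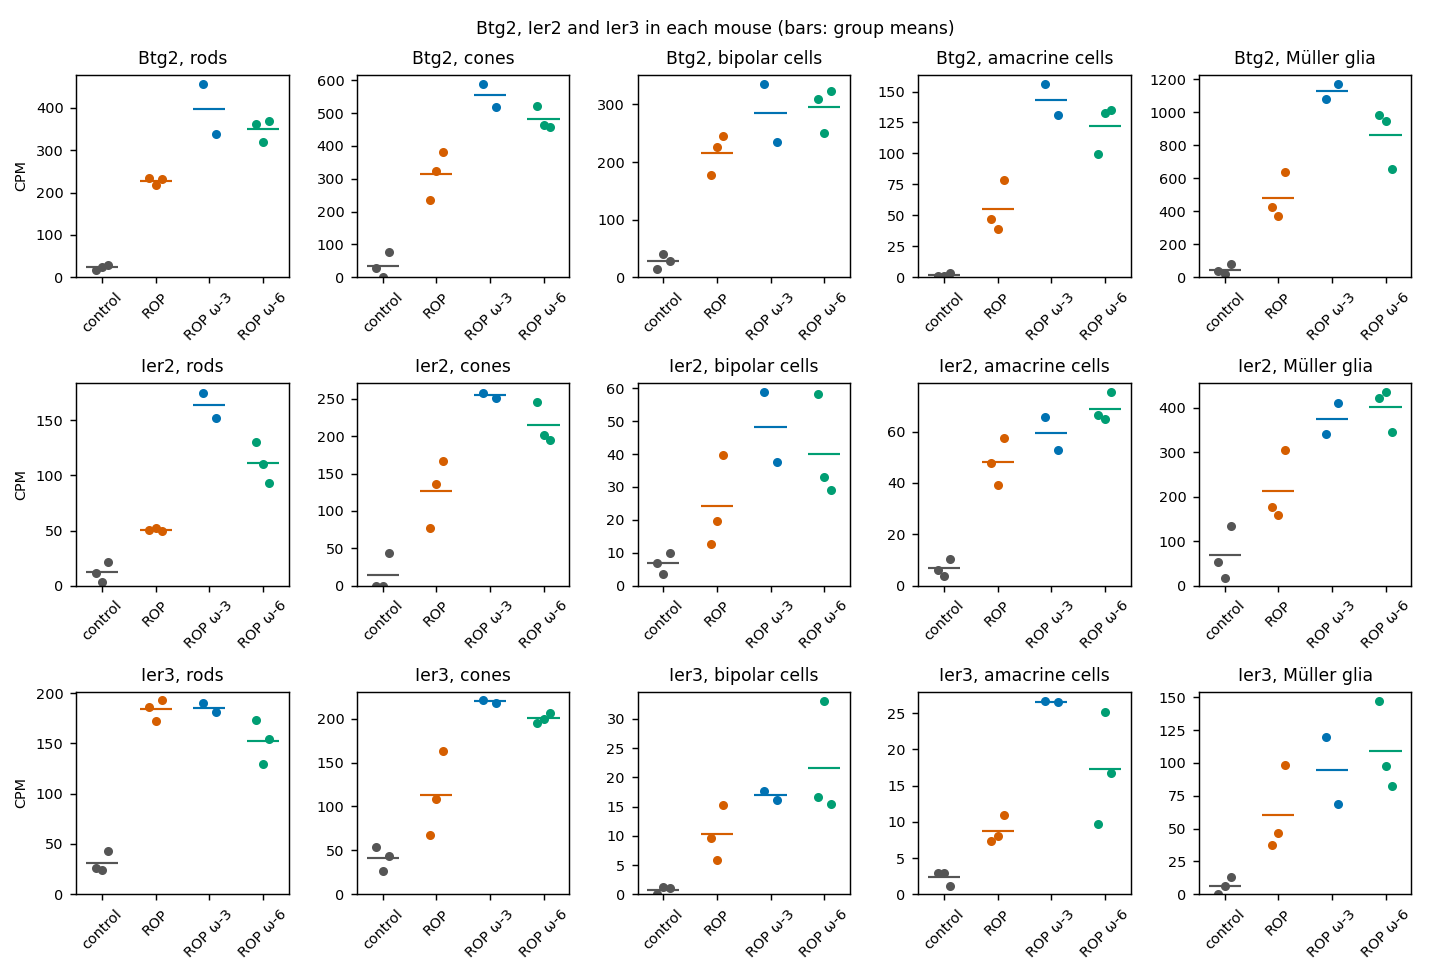
Btg2, Ier2 and Ier3 in each mouse by group, as CPM on linear axes that start at 0, for the 5 classes, with 1 point per mouse and a bar at the group mean. For Ier2 in rods the diet-fed mice span 93.5 to 175 CPM and the other Phase I ROP mice 49.9 to 52.4 CPM, while for Ier3 in rods the diet-fed mice span 129 to 190 CPM beside 172 to 193 CPM.

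Btg2 was the member called in both amacrine cells and Müller glia. In amacrine cells Btg2 was 46.7, 39.2 and 78.5 CPM without a named diet, 156 and 131 CPM on ω-3 and 99.7, 133 and 135 CPM on ω-6, a log2 fold change of 1.31 ± 0.20 (adjusted p = 0.0352, edgeR). It was the 1 member called of 9 tested, with 0.0221% of all genes tested called higher, and the other genes called there were Nr2e3 (1.49) and Otx2 (1.78), named after their values were seen. The call was lost without Phase I ROP replicate 1 (adjusted p = 0.059), without replicate 2 (0.162) and once the top 5% of cells by Scrublet doublet score had been removed (0.233). In Müller glia Btg2 was 427, 371 and 640 CPM without a named diet, 1080 and 1170 CPM on ω-3 and 980, 949 and 654 CPM on ω-6, a log2 fold change of 1.09 ± 0.20 (adjusted p = 0.0389, edgeR). The groups did not overlap, although ω-6 replicate 3 was only just above the highest of the other mice. It was the 1 member called of 10 tested, with 0.0504% called higher, and the call was lost on leaving out any 1 mouse other than Phase I ROP replicate 3, with adjusted p between 0.0619 (without ω-6 replicate 3) and 0.408 (without Phase I ROP replicate 2). It was also lost in a fit of all 4 groups (0.0843), with cells of more than 500 genes (0.0771), without the cells of highest Scrublet score (0.0731) and on clustering without the members and listed genes (0.0911). Without Phase I ROP replicate 3 there were 3 members called.

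In bipolar cells 0 of 8 members tested were called by edgeR or by DESeq2, with 0.0361% of all genes tested called higher, and 4 of the 8 had an unadjusted p under 0.05 (Btg2, Dusp1, Ier2 and Ier3), as had 9.88% of all genes tested. Btg2 there was 177, 226 and 246 CPM without a named diet and 235 to 336 CPM in the diet-fed mice (log2 fold change 0.51 ± 0.17, adjusted p = 0.346). The rod markers differed in these classes as well. Diet-fed against other Phase I ROP mice, they summed to 2700 to 4420 and 1690 to 2410 CPM in bipolar cells, 927 to 2240 and 844 to 1190 CPM in amacrine cells, and 2700 to 5610 and 948 to 2670 CPM in Müller glia, while in rods the ranges were 32800 to 40300 and 31600 to 44800 CPM. Their part in the Btg2 values was not tested. Over the members tested the median change was 0.55 in Müller glia, 0.40 in amacrine cells, 0.79 in bipolar cells, 0.48 in cones and 0.35 in rods on the log2 scale, beside medians near 0 over all genes.

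The other members did not pass the test in any class. Ier2 and Ier3 also had changes of similar size in some classes where they were not called. Ier2 in Müller glia changed by 0.91 ± 0.22 on the log2 scale (adjusted p = 0.219, edgeR). It was at 160 to 306 CPM without a named diet and 341 to 435 CPM in the diet-fed mice, without overlap. Ier3 in amacrine cells changed by 1.33 ± 0.36 (adjusted p = 0.265, edgeR), with the groups overlapping. Arc in Müller glia was 40.8, 46.4 and 118 CPM without a named diet, 132 and 114 CPM on ω-3 and 78.6, 57.4 and 97.8 CPM on ω-6 (log2 fold change 0.58 ± 0.33, adjusted p = 0.696, edgeR), with the groups overlapping. Dusp1 in amacrine cells was 224, 215 and 275 CPM, then 287 and 301 CPM on ω-3 and 259, 348 and 477 CPM on ω-6 (0.50 ± 0.17, adjusted p = 0.341). Gadd45b was nearly level in amacrine cells, at 57.3, 69.2 and 64.6 CPM without a named diet and 59.2 to 70.7 CPM in the diet-fed mice.

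The ω-6 and ω-3 LCPUFA diets were the comparison the study was built on, and no member was called between them. By edgeR 0 of 10 members tested in Müller glia, 0 of 10 in amacrine cells, 0 of 8 in bipolar cells, 0 of 7 in cones and 0 of 7 in rods passed, and by DESeq2 none did. Over all genes tested 0.0158% were called higher in rods (the mitochondrial rRNA genes mt-Rnr1 and mt-Rnr2) and 0.0% in each of the other 4 classes. At an unadjusted p under 0.05 there was 1 of 7 members in rods, where 10.9% of all genes tested passed, and 1 of 8 in bipolar cells, where 4.21% did. There were 0 in cones (8.03%), amacrine cells (9.89%) and Müller glia (3.56%). In rods the gene was Ier2, at 175 and 152 CPM on ω-3 and 130, 110 and 93.5 CPM on ω-6, a log2 fold change of -0.42 ± 0.16 (adjusted p = 0.392, edgeR). The diets did not overlap, with each ω-6 mouse below each ω-3 mouse. In rods the same was true of Dusp1, Ier3 and Ppp1r15a, none of them called. The share of all genes so separated was not counted, so nothing is read from this separation. In bipolar cells it was Dusp6, at 49.9 and 18 CPM on ω-3 and 6.92, 21 and 13.7 CPM on ω-6 (-1.18 ± 0.51, adjusted p = 0.991), where ω-3 replicate 1 alone was high. Btg2 in rods changed by -0.05 ± 0.15 and in cones by -0.16 ± 0.16, and Ier3 in cones by -0.10 ± 0.18. With 2 and 3 mice, a p above the threshold does not show that the diets act alike.

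**Figure D3:**
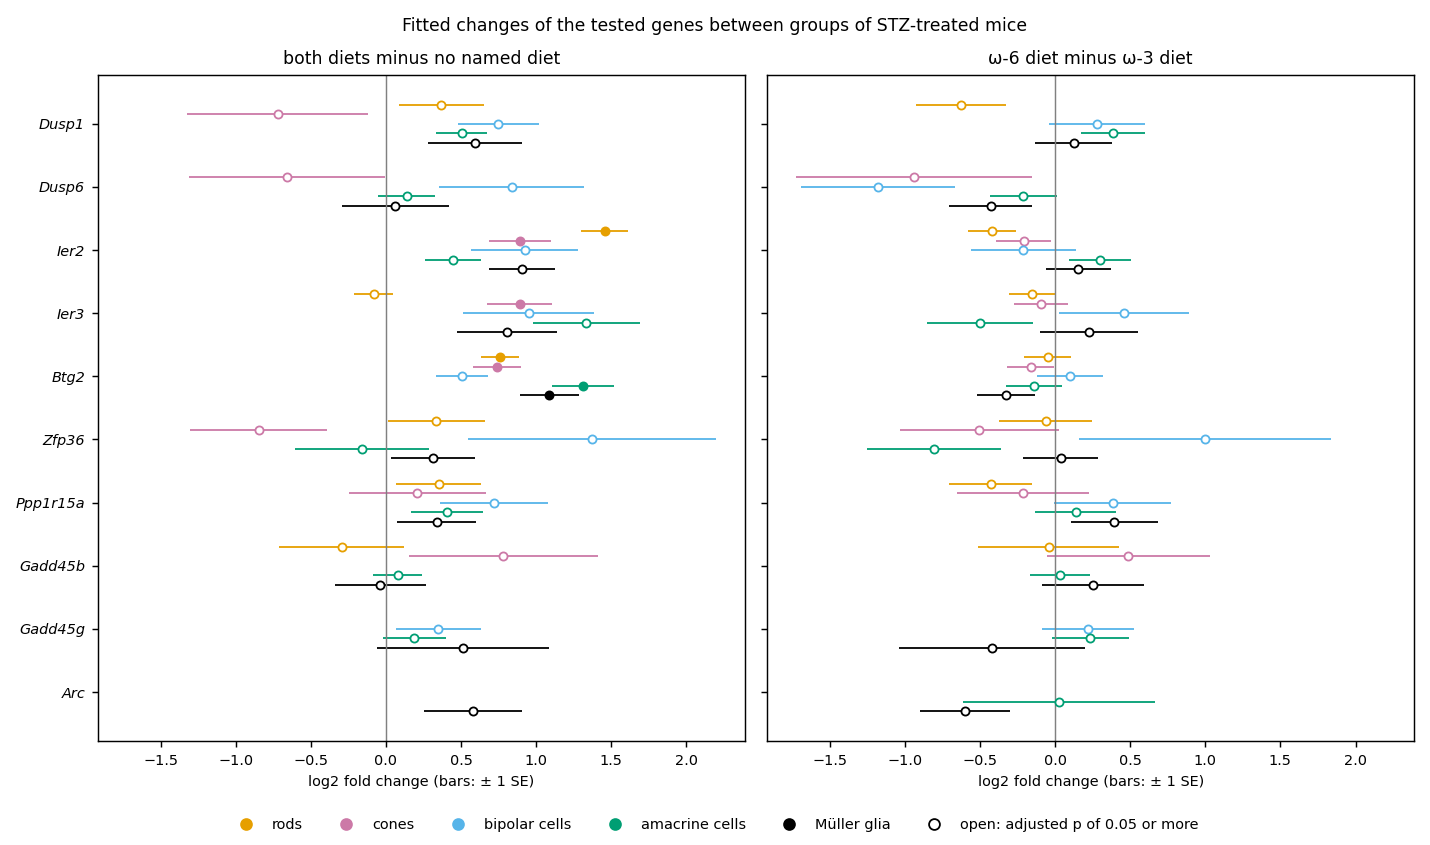
Fitted log2 fold changes of the members with ± 1 SE, at left for both diets minus the Phase I ROP mice without a named diet and at right for ω-6 minus ω-3, coloured by class, filled where the adjusted p was under 0.05. The filled points at left are Ier2 and Btg2 in rods, Ier2, Ier3 and Btg2 in cones, and Btg2 in amacrine cells and Müller glia, and no point at right is filled.

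Among the 5 large classes, the class in which each gene was highest was described over the 8 STZ-treated mice, without a test because classes are clusters of the same cells. Small classes, given further below, are not in this order, and some were higher, such as endothelial cells for Dusp1 and astrocytes for Ier3. Dusp1 was highest in amacrine cells, at 298 ± 83.8 CPM (SD, n = 8), then in Müller glia at 183 ± 68.6 CPM and in bipolar cells at 52.6 ± 17.4 CPM, and each of these steps was in the same direction in 8 of 8 mice. Rods (16.9 ± 5.2) and cones (16.5 ± 9.52) did not differ beyond their spread. In the control mice the order of Müller glia and amacrine cells was the other way, at 70.6 ± 58.9 and 17.8 ± 0.395 CPM (n = 3). Ier3 was at 172 ± 21.3 CPM in rods and 172 ± 56 CPM in cones, 87.4 ± 36.7 CPM in Müller glia, and 16.4 ± 8.55 and 16.2 ± 7.86 CPM in amacrine and bipolar cells. Müller glia were below the photoreceptors for Ier3 on average, and neither rods and cones nor amacrine and bipolar cells could be ordered.

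Müller glia came first among these 5 classes for 7 genes. For Arc they held 85.6 ± 34.9 CPM, 14.5 times the 5.89 ± 2.45 CPM of amacrine cells. For Zfp36 they held 201 ± 62.6 CPM, 8.13 times the next class, cones, at 24.8 ± 11.8 CPM. For Ppp1r15a they held 201 ± 65.7 CPM, with the other 4 classes between 17.3 and 27.4 CPM and not clearly ordered. Gadd45b was at 157 ± 59 CPM in Müller glia and 64.2 ± 5.01 CPM in amacrine cells, and at 16.7 CPM or less elsewhere. Btg2 ran from 783 ± 301 CPM in Müller glia through cones (437 ± 116), rods (317 ± 83.4) and bipolar cells (263 ± 55.2) to amacrine cells (102 ± 43.6). Ier2 ran from 324 ± 107 CPM in Müller glia through cones (192 ± 63), rods (101 ± 48.5) and amacrine cells (58.8 ± 11.7) to bipolar cells (36.1 ± 16.4). Dusp6 was at 131 ± 59.9 CPM in Müller glia and 45.8 ± 5.78 CPM in amacrine cells, in this order in 7 of 8 mice. Gadd45g had no such peak, with 45.8 ± 8.1, 43.7 ± 11.8 and 38.2 ± 24.5 CPM in amacrine cells, bipolar cells and Müller glia, which did not differ beyond their spread, and 6.55 ± 4.37 and 4.32 ± 1.96 CPM in cones and rods.

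Among the amacrine clusters, 1 of 5 had the highest levels of Dusp6, Gadd45b and Gadd45g. It was led by Chat, Slc5a7 and Slc18a3, the synthesis and transport genes of cholinergic amacrine cells, and had 100 cells in the STZ-treated mice. Dusp6 averaged 212 ± 62.8 CPM there (range 112 to 297, n = 8 mice) and had a UMI in 54.0% of the cells, while pooled levels in the other 4 amacrine clusters were 27.2 to 51.1 CPM. The share of 54.0% was not thinned for depth, and these were the deepest amacrine cells. Their UMIs were at a median of 5.06 times the median cell of the mouse, against 1.52 to 2.74 times in the other 4 clusters. In the control mice, 15 of the 29 amacrine UMIs of Dusp6 came from the 28 cells of this cluster, at 51.4 CPM (95% interval 28.8 to 84.8). Gadd45b pooled to 197 CPM (167 to 232) against 25.6 to 62.1 CPM in the other 4, and Gadd45g to 131 CPM (106 to 160) against 23 to 72.6 CPM. Dusp1 averaged 467 ± 229 CPM, and in the cluster of Cartpt and Gad1 346 ± 102 CPM, a difference within their spread. Arc in amacrine cells was concentrated in the cluster of Cartpt and Gad1, with 57 UMIs in 1048 cells and 0 UMIs in the 100 cells of the Chat cluster. The clusters of bipolar cells were alike for Btg2, at 271 CPM (257 to 287) with Grm6 and Trpm1 and 247 CPM (223 to 274) with Grik1 and Scgn. Among the 2000 genes used for clustering were 7 of the 10 members, all but Btg2, Ier2 and Ier3.

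**Figure D4:**
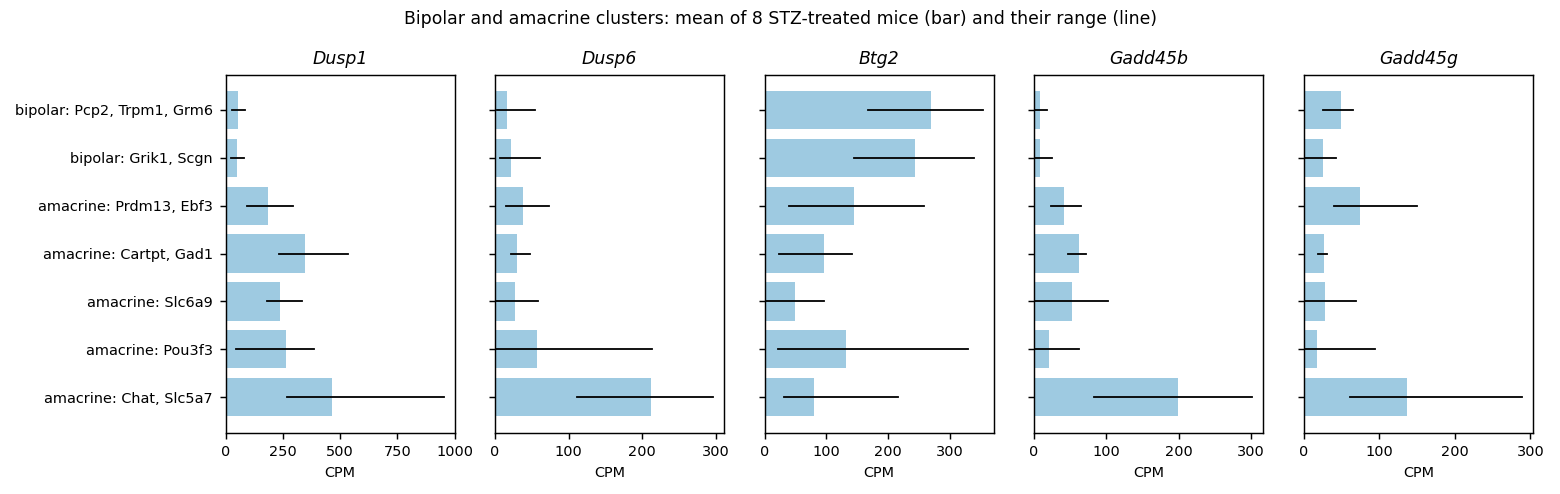
Dusp1, Dusp6, Btg2, Gadd45b and Gadd45g in the 2 bipolar and 5 amacrine clusters, as mean CPM over the 8 STZ-treated mice (bar, from 0) with the lowest and highest mouse (line). Dusp6 in the Chat and Slc5a7 cluster spans 112 to 297 CPM, and the Btg2 bars are longest in the bipolar clusters.

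Small classes were pooled over the STZ-treated mice, with intervals for counting error only. Endothelial cells held 523 CPM of Dusp1 (457 to 596) and 433 CPM of Zfp36 (374 to 500) in 63 cells, and in the 50 endothelial cells of the control mice 36.1 CPM (16.5 to 68.6) and 8.03 CPM (0.972 to 29). Of the 63 cells 21 came from ω-6 replicate 2, and of the 50 control cells 32 came from control replicate 3, so 1 mouse weighs heavily on each side. Microglia held 1170 CPM of Zfp36 (981 to 1370) in 47 cells, and astrocytes 1310 CPM of Btg2 (1170 to 1460), 711 CPM of Ier3 (609 to 825) and 77.6 CPM of Arc (46.7 to 121) in 41 cells. Müller glia, the other macroglia of the retina, averaged 85.6 CPM of Arc in the same mice. Ganglion cells held 117 CPM of Dusp1 (97.6 to 140) and only 3 UMIs of Arc in 69 cells. In the pigment epithelium Dusp6 was at 164 CPM (91.6 to 270) and Zfp36 and Gadd45b had no UMI in 66 cells.

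Shares of cells with a UMI were compared after each cell was thinned to 500 UMIs, because depth differed between groups. Shallower cells were left out, in Müller glia 9 control, 17 Phase I ROP, 6 ω-3 and 4 ω-6 cells, and in rods 53, 281, 66 and 112. In Müller glia 1.72% of control cells, 11.4% of Phase I ROP cells, 30.4% of ω-3 cells and 22.7% of ω-6 cells had a Btg2 UMI, as means over mice, and without thinning the shares were 7.62%, 34.0%, 57.3% and 44.8%. For Ier2 in rods the thinned shares were 0.581%, 2.19%, 6.61% and 4.21%, and the unthinned shares 1.2%, 4.10%, 15.9% and 10.5%. The order of the groups was the same at both depths. For Dusp1 in amacrine cells the thinned shares were 0.701%, 8.38%, 9.98% and 12.4%, and the unthinned shares 3.33%, 24.4%, 35.2% and 37.8%. Arc was seen after thinning in 0.0% of control Müller glia and in 2.49%, 3.44% and 3.10% of those of the other groups, and without thinning in 0.233%, 6.5%, 12.8% and 8.0%. Free RNA can give such UMIs, and no class here is known to lack these genes. For comparison, at 500 UMIs rods had Dusp1 in 0.355%, 0.728%, 1.0% and 0.409% of cells, bipolar cells had Ier2 in 0.383%, 1.01%, 2.0% and 2.32%, and amacrine cells had Btg2 in 0.253%, 2.99%, 5.58% and 5.25%. Bipolar cells without thinning had Arc in 0.422% of ω-3 cells and 0.0% of the other groups.

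The genes were also counted together within cells. At 500 UMIs, 89.9% of control Müller glia had none of the 10 genes, against 63.0% in Phase I ROP, 48.2% on ω-3 and 59.3% on ω-6. No control Müller glia had 3 or more, against 3.67%, 6.45% and 7.34%. Rods without any of them were 94.8% of the control cells and 79.1%, 72.3% and 77.8% of the others, and 3 or more in 1 rod was rare at 0.0289%, 0.159% and 0.112%. At this depth a cell shows only a small part of its RNA, so an absent UMI is not an absent transcript.

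**Figure D5:**
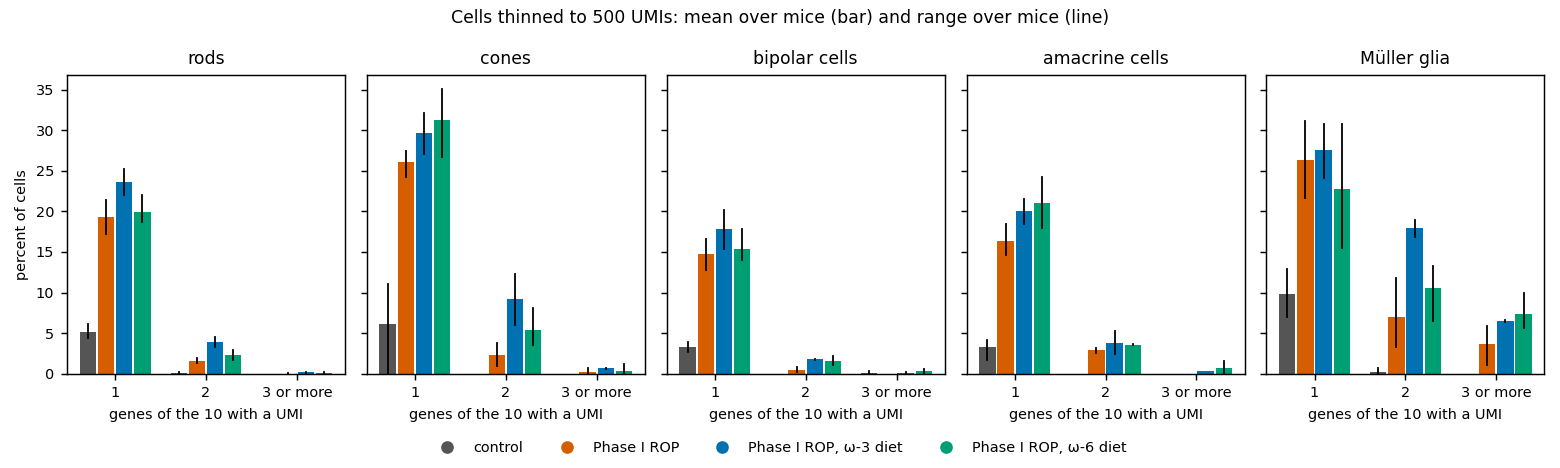
Share of cells, in percent, in which the given number of the 10 genes had a UMI after thinning to 500 UMIs, as means over mice for each group and class. Müller glia have the largest share of cells with 3 or more of the genes, 3.67% to 7.34% in the STZ-treated groups and 0.0% in control.

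Around these genes, listed genes of the same pathways were counted in the Phase I ROP vs. control fit. Beside every count below stand the shares of all genes tested in that fit, in the order Müller glia, amacrine cells, bipolar cells, cones and rods, of 5.81%, 18.3%, 21.3%, 10.9% and 20.4% called higher and 5.03%, 20.5%, 23.9%, 7.9% and 20.7% called lower. Of the other phosphatases, Sprouty and Spred genes that dampen MAP kinases, 3 of 5 tested rose in Müller glia, 9 of 13 in amacrine cells, 5 of 7 in bipolar cells, 2 of 2 in cones and 5 of 5 in rods, and none fell. Dusp8 rose in all 5 classes (4.70, 1.97, 2.03, 2.88 and 2.41 on the log2 scale, in the same order). Of the MAP kinases themselves 0 of 10, 5 of 14, 4 of 13, 1 of 5 and 3 of 9 rose. Among the partners of Zfp36 and Btg2 in mRNA decay 3 of 11, 6 of 13, 6 of 13, 3 of 7 and 7 of 14 rose, with Tob1, a relative of Btg2, higher in all 5 classes (1.22 to 2.63).

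Around Ppp1r15a, 3 of 5 rose and 1 fell in Müller glia, 5 of 9 rose and 2 fell in amacrine cells, 4 of 9 rose and 2 fell in bipolar cells, 2 of 5 rose in cones, and 4 of 8 rose and 1 fell in rods. Atf4 and Ddit3, which encode transcription factors of the same stress response, rose in all 5 classes (1.52 to 2.19 and 1.31 to 2.53), while Ppp1ca, a catalytic subunit that Ppp1r15a directs, fell by 0.71, 1.18, 0.79 and 1.15 in rods, bipolar cells, amacrine cells and Müller glia. Growth arrest and p53 genes rose in 2 of 4, 5 of 9, 3 of 7, 1 of 3 and 5 of 7 in the same order of classes, Gadd45a among them in every class but bipolar cells. Neuronal activity genes related to Arc rose in 5 of 5, 7 of 8, 2 of 3, 1 of 1 and 1 of 2, with Nr4a1 higher in all 5 (2.04 to 6.15). The dissociation list rose in 16 of 21, 13 of 16, 8 of 12, 8 of 10 and 13 of 15, and 2 of its genes fell in bipolar and 2 in amacrine cells.

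Between ω-6 and ω-3 none of these listed genes was called in any class. Between the diet-fed mice and the Phase I ROP mice without a named diet, calls were few outside cones. Leaving the dissociation list aside, 2 of 56 listed genes tested were called higher and 4 lower in cones, 1 of 59 was called higher in rods, and none was called in the other classes. Of all genes tested, 1.44% were called higher and 1.82% lower in cones, and 0.125% higher and 0.156% lower in rods. The shares called higher and lower were 0.0504% and 0.0378% in Müller glia, 0.0361% and 0.0% in bipolar cells, and 0.0221% and 0.0% in amacrine cells. In cones Plk2, a kinase of the p53 and synaptic response, rose (1.42 ± 0.36, adjusted p = 0.0309, edgeR), as did the ERK kinase gene Map2k2 (0.75 ± 0.21, adjusted p = 0.0441). The phosphatase subunit gene Ppp1cc (-0.58 ± 0.14, adjusted p = 0.026), Spred1 (-1.51 ± 0.36, adjusted p = 0.0218), Ddit3 (-0.90 ± 0.22, adjusted p = 0.0208) and Egr3 (-1.93 ± 0.47, adjusted p = 0.0218) fell. In rods Nr4a1 rose (0.91 ± 0.16, adjusted p = 0.020). The dissociation list had 2 genes down of 24 tested in Müller glia, 0 of 21 in amacrine cells, 1 up of 16 in bipolar cells, 2 up and 5 down of 17 in cones and 3 up and 3 down of 21 in rods. The pair that fell in Müller glia were the heat shock genes Hspa1a (-4.09) and Hspa1b (-4.79), and over all cells 1 Phase I ROP mouse held 329 CPM of Hspa1a against 26.5 and 31.5 CPM in the other mice of its group. Over all cells the list summed to 4900 to 6430 CPM in Phase I ROP and 4890 to 5970 CPM in the diet-fed mice.

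Genes with the pattern most like each member were ranked by Pearson correlation over 55 sums (11 mice and 5 classes, log2 of CPM + 10, 11603 genes). The sums share mice, libraries and depth, so the values are a description. Arc was most like Csrnp1 (0.951), Gadd45b most like Nr4a3 (0.929), Ppp1r15a most like Jund (0.925) and Zfp36 most like Csrnp1 (0.911). Dusp6 was most like Spry1 (0.872), another inhibitor of the ERK pathway. Btg2 was nearest to Jun (0.893) and Ier2 to Fosb (0.891), and Ier2 and Btg2 were among the 3 nearest of each other (0.869). Dusp1, Ier3 and Gadd45g were nearest to genes outside the early response, Lzts2 (0.897), Hnrnpf (0.879) and Fscn1 (0.883). Over the 40 sums of the 8 STZ-treated mice alone, 2 of the 30 places kept the same gene, Spry1 for Dusp6 (0.904) and Nr4a3 for Gadd45b (0.939).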

How the data were processed

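With bcbio-nextgen the authors identified barcodes and UMIs and kept only barcodes of at least 500 reads, and with Rapmap they mapped reads to GRCm38 transcripts (GENCODE). The deposited values are raw counts of UMIs for each gene in each cell, not normalized. From these deposited counts, cells with more than 300 genes and genes in more than 10 cells were scaled to 10000 per cell and clustered with Seurat 5.3.0 (2000 variable genes, 75 principal components, resolution 0.2). A cluster took the name of the class whose markers it held. Scrublet in scanpy 1.11.5 marked 72 cells (0.359%), too few to rely on, so no doublets were removed. UMIs were summed per mouse and class, with at least 10 cells in each mouse.

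Tests used edgeR 4.0.16 (quasi-likelihood, TMM scaling, filterByExpr, Benjamini-Hochberg over all genes tested, threshold 0.05) in R 4.3.3. Only the groups compared entered a fit. Fold changes are log2 values and their SE was taken from the F statistic. The contrast of diet-fed mice was the mean of both diets minus the Phase I ROP mice without a named diet. DESeq2 1.42.0, other scalings, filters, clusterings and left-out mice were alternatives, and the only-marker-led rod clusters were added after seeing the data. The fits were tested on simulated data. Named genes were all 10 members, at most 3 genes a list (called in most classes) and the 3 most alike to each member. The members and lists were chosen with earlier results of these data known.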

Additional observations from a re-analysis of the deposited data

Results flagged for a closer look

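Among 100 sets of mice looked at for 1 mouse apart from the rest (Dixon's test at 95%), 7 were marked, and chance marks about 1 in 20. In bipolar cells, Dusp6 was at 49.9 CPM in ω-3 replicate 1, far above the next of the 8 STZ-treated mice at 21 CPM. In the same class ω-6 replicate 2 held 33.0 CPM of Ier3, with the next mouse at 17.6 CPM, apart both among the 5 diet-fed and among the 8 STZ-treated mice. The same mouse held 42.9 CPM of Zfp36 in bipolar cells, with the next at 16.6 CPM. Arc was marked in photoreceptors on very few UMIs, at 12.9 CPM in the cones of ω-6 replicate 3 (6 UMIs, in both sets of mice) and at 1.73 CPM in the rods of ω-3 replicate 1 (3 UMIs).

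Gadd45g went in opposite directions in 2 classes. The mean of the Phase I ROP mice minus that of the control mice was -11.7 CPM in rods, where each Phase I ROP mouse was below each control mouse, and 20.8 CPM in amacrine cells, where each was above. The fitted log2 fold change in amacrine cells, 0.63 ± 0.29, was not called, and in rods Gadd45g was too low for the main fit. The difference between the classes was not tested.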

How the results depend on the processing

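Genes called are given in the order rods, cones, bipolar cells, amacrine cells and Müller glia. Phase I ROP vs. control called 3464, 587, 4536 and 4391 genes in the first 4, and 282 higher and 244 lower in Müller glia. A fit of all 4 groups called 5255 in rods and 961 in cones, DESeq2 309 in Müller glia, and rods limited to clusters led by a rod marker, a choice made after seeing the data, 2242. With 1 mouse left out the counts were 2618 to 3778, 276 to 649, 3623 to 4399, 3349 to 4189 and 265 to 420. Between ω-6 and ω-3, where 2, 0, 0, 0 and 0 genes were called, DESeq2 called 28, 5, 2, 8 and 2 and no filter 154, 12, 18, 139 and 9. In rods alone the count was 6 with all 4 groups, 0 with more than 500 genes per cell, 0 without the 5% of cells of highest Scrublet score and 1 on clustering without the members. With 1 mouse left out it was 0 to 17, 0 to 3, 0 to 0, 0 to 5 and 0 to 4. Diet-fed against other Phase I ROP mice, where 36, 304, 4, 3 and 7 genes were called, DESeq2 called 11 in Müller glia, 32 in amacrine cells, 30 in bipolar cells and 95 in rods, and no filter 83, 153, 166 and 227. All 4 groups gave 8 in rods and 3 in Müller glia. Without the cells of highest Scrublet score the counts were 1 in Müller glia, 0 in amacrine cells and 8 in bipolar cells, on clustering without the members 18 in bipolar cells and 1 in Müller glia, and with more than 500 genes 1 in Müller glia. With 1 mouse left out they were 6 to 50, 123 to 327, 0 to 113, 0 to 21 and 0 to 23.

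Members called changed as follows. In Phase I ROP vs. control, no filter called 6 in rods, 7 in bipolar cells and 8 in Müller glia, all 4 groups 6 in rods (5 higher and Gadd45g lower) and 6 in bipolar cells, and DESeq2 1 in cones. With 1 mouse left out the counts were 3 to 4, 1 to 2, 2 to 5, 6 to 7 and 5 to 7. Among diet-fed against other Phase I ROP mice, all 4 groups called 1 in rods and 0 in Müller glia, no filter 3 in amacrine cells and 2 in Müller glia, and leaving out the cells of highest Scrublet score 0 in both. In Müller glia it was also 0 with more than 500 genes and on clustering without the members. With 1 mouse left out the counts were 1 to 2, 0 to 3, 0 to 0, 0 to 1 and 0 to 3. Between ω-6 and ω-3 it was 0 under every alternative. Uncalled folds changed sign in few cases, and the cause was not tested. Dusp1 in Müller glia, Phase I ROP vs. control, ranged from -0.02 to 1.71 with 1 mouse left out. Between ω-6 and ω-3, with 1 mouse left out, Btg2 ranged from -0.23 to 0.14 in rods and -0.16 to 0.41 in bipolar cells, Ier2 from -0.57 to 0.17 in bipolar cells and -0.0 to 0.29 in Müller glia, and Ier3 from -0.01 to 0.63 in bipolar cells and -0.1 to 0.67 in Müller glia. Btg2 in rods was 0.0 with the marker-led clusters, and Ier3 in bipolar cells was -0.56 on clustering without the members. Of 400 shares of cells with a UMI recomputed at another depth, 264 moved by more than the spread between mice. Of 30 most-alike places, 28 changed over the STZ-treated mice alone. Depth limits the low members, which the count filter left out of the tests.

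The main fits did not pair mice by replicate number, and whether the numbers mark pairs was not tested. The correlation of deviations of same-numbered mice was -0.057 to 0.154 over 15 pairs for Phase I ROP vs. control, 0.046 to 0.273 over 10 pairs for ω-6 vs. ω-3 and -0.042 to 0.266 over 35 pairs for the diet-fed mice. Above 0.1 were 1, 5 and 6 of these pairs. For ω-6 vs. ω-3, the mice numbered 2 gave 0.181 to 0.273 over the 5 classes. With the number as a block, ω-6 vs. ω-3 called 43, 22, 17, 60 and 10 genes and diet-fed against other Phase I ROP mice 23 in Müller glia, 12 in amacrine cells, 24 in bipolar cells and 67 in rods. The block called 6 members in place of 5 in Müller glia, Phase I ROP vs. control, and the same number of members in every other class and comparison.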
